A study of Mus musculus with 16 samples.

Results

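The 10 genes followed here through injury of the mouse striatum belong to the brain's extracellular matrix and are associated with the glial scar: the tenascins Tnc and Tnr, the lecticans Vcan, Bcan, Ncan and Acan, the membrane proteoglycans Cspg5 and Ptprz1, and the link proteins Hapln1 and Hapln4. They were taken by gene symbol from a read count table of 19457 genes, all 10 were found, and all 10 were among the 18813 genes that passed the low-count filter and were tested. RNA came from the striatum of mice of the WT and the GS genotype, the second read as the G2019S form of LRRK2 given in the series title. Neither strain, age and sex nor how the allele was introduced is stated in the labels used here. Intact striatum was compared with striatum taken 6 h, 3 d or 15 d after 0.8 µl of 500 mM ATP had been injected into it on 1 side. The effects of needle, volume and ATP cannot be told apart, since no sham-injected group is among the samples. Each of the 8 groups has 2 libraries that the labels call biological replicates, 16 in all. Total counts ran from 49220578 to 63948110 per library, and no member had fewer than 71 reads in any library.

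Lecticans are chondroitin sulfate proteoglycans whose N-terminal domain binds hyaluronan and whose C-terminal lectin-like domain binds tenascins. Link proteins hold the hyaluronan bond in place. Together these molecules form the loose matrix between brain cells and its dense form, the perineuronal net around some neurons, and after injury reactive astrocytes and oligodendrocyte precursors deposit chondroitin sulfate proteoglycans and tenascin C around a lesion, where they limit axon growth.

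The tissue expressed the striatal projection neuron list (8 of 8 markers measured, including Drd1, Drd2 and Ppp1r1b) at a summed level of 6132 to 10626 CPM per library, where CPM is the read count scaled to the TMM-adjusted library total. Cortical excitatory neuron markers summed to 42.3 to 220.1 CPM with a median of 55.4 CPM, and 3 WT libraries were at the top (replicate 1 of WT intact, replicate 2 of WT 6 h, replicate 1 of WT 15 d). Results are given without them where that changes a call. Of the 10 members 7 were lower in replicate 1 than in replicate 2 of WT 3 d, the microglia and macrophage markers of which summed to 458 and 705 CPM and the projection neuron markers to 8023 and 7043 CPM. The part of that difference in the results was not tested, and calls that change without either library are given with and without it. No marker of any list that the table holds was at 0 in a library, which is true of every gene in the deposited count table. In whole tissue, fewer cells of a type and less RNA per cell cannot be told apart. Values written a ± b are edgeR quasi-likelihood log2 fold changes with a standard error computed from the F statistic. Each group has 2 libraries, and the spread behind that error is estimated per gene over all 8 groups, not from the compared groups alone. "Rose" and "fell" are used for genes with a Benjamini-Hochberg adjusted p under 0.05 over all 18813 genes.

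In the genome (RefSeq positions on GRCm38.p6, which is mm10) each link protein gene lies next to a lectican gene, with no annotated gene between them. Hapln1 (chromosome 13, positions 89540529 to 89611832) is 43.5 kb from Vcan (89655309 to 89743027). Hapln4 (chromosome 8, 70083529 to 70090862) is 2.22 kb from Ncan (70093085 to 70120863). Hapln2 is 18.4 kb from Bcan (chromosome 3, 87987531 to 88002175), and Hapln3 is 1.93 kb from Acan (chromosome 7, 79053226 to 79115099). Tnc is on chromosome 4 (63959785 to 64047015), Tnr on chromosome 1 (159523729 to 159931729), Cspg5 on chromosome 9 (110243783 to 110262576) and Ptprz1 on chromosome 6 (22875315 to 23052916). Annotated long noncoding RNA genes overlap Tnc, Tnr, Vcan, Acan and Ptprz1. The labels do not state whether counting used strand, so reads of such partners cannot be told apart from those of the member.

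The 250 bases before the start of Tnc (the more upstream of its 2 entries) and Acan are shown because these genes had the widest ranges between group means, 15.1-fold and 2.74-fold. Both are from RefSeq, GRCm38.p6, written 5′ to 3′ on the gene's strand, with the TATA motif TATAAA in capitals. The Tnc stretch is the minus strand of chr4:64047016-64047265 and the Acan stretch the plus strand of chr7:79052976-79053225.
Tnc: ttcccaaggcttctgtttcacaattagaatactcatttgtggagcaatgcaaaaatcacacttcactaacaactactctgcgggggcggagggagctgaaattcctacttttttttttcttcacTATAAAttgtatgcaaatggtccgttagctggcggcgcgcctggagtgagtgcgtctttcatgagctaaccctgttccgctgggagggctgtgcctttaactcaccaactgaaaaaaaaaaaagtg
Acan: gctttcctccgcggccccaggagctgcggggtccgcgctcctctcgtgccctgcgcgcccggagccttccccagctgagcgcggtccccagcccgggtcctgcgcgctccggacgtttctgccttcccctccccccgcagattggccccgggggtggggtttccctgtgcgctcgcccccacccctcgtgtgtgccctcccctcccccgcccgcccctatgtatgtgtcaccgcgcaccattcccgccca
The Tnc stretch holds 44.8% G and C and 1 match to TATAAA, starting 126 bases before this start and 205 bases before that of the other entry. Only exact copies of TATAAA were counted. The other entry, which is not shown, also holds tatataag nearer to its start, which is no exact copy. The Acan stretch holds 74.4% G and C and no match. The median over all 32851 promoter entries was 52.4%, and 12.4% of entries hold TATAAA on either strand within the same length. The AP-1 motif TGANTCA (6.75% of entries) and the STAT motif TTCNNNGAA (7.02%), searched on both strands, had no match in either stretch. Of the 10 genes 8 have an entry in the promoter table.

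Per kilobase of exon, Bcan was the most abundant member in WT intact striatum at 65.3 ± 1.18 CPM per kb (SD, n = 2), followed by Ncan at 23.0 ± 0.840, Ptprz1 at 21.2 ± 0.0910, Cspg5 at 20.7 ± 0.0370 and Tnr at 13.9 ± 0.168 CPM per kb. Hapln4 stood at 5.45 ± 0.780, Hapln1 at 3.78 ± 0.356 and Vcan at 2.83 ± 0.116 CPM per kb. Tnc at 0.347 ± 0.0186 and Acan at 0.277 ± 0.0779 CPM per kb were lowest, and differed from each other by less than the SD of Acan. The exon lengths join all GENCODE M21 exons of a gene, and which isoforms were expressed was not tested. Ncan, Ptprz1 and Cspg5 lie close together on this scale.

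Injury split the genes into several courses. Tnc rose steeply at 3 d and was still up at 15 d. Vcan was raised at 3 d and 15 d in both genotypes and also at 6 h in GS. Ptprz1 and Hapln1 rose at 3 d in both genotypes, and Hapln1 also at 15 d in GS. Ncan fell at 6 h and rose at 3 d in GS, and Acan rose at 6 h in GS. Tnr fell at 6 h, and its libraries of 3 d and 15 d overlapped the intact ones. Hapln4 fell at 3 d in both genotypes and at 15 d in WT. Most alternatives did not keep the 3 d calls of Hapln1 in WT and of Hapln4 in GS, or the 6 h call of Acan in GS. The other 6 h calls also changed when libraries were left out, and such limits are given gene by gene below. Bcan and Cspg5 passed at no time in either genotype in edgeR, and other tools or fits called them at some times. At 6 h 0 of 10 members rose and 1 fell in WT (2.54% and 1.55% of all genes tested; 1 rose at an unadjusted p under 0.05 in edgeR, 1 with DESeq2 and 0 with limma-voom), and 2 rose and 2 fell in GS (7.47% and 6.37%). At 3 d 4 rose and 1 fell in WT (14.7% and 12.7% of all genes), and 5 rose and 1 fell in GS (18.6% and 16.4%). At 15 d 2 rose and 1 fell in WT (14.2% and 11.2%), and 3 rose and 0 fell in GS (19.4% and 17.6%; 1 member fell at an unadjusted p under 0.05 in edgeR, and 0 fell with DESeq2 or limma-voom). The median log2 fold change of the 10 members was -0.27 in WT and -0.19 in GS at 6 h, 0.14 and 0.24 at 3 d, and 0.13 and 0.14 at 15 d, beside medians over all genes between -0.023 and 0.0055. Regardless of the test, both injured libraries lay above both intact ones of their genotype for 2 members and below for 7 at 6 h in WT (27.2% and 27.5% of all genes), and for 2 and 5 in GS (31.7% and 30.3%). At 3 d they lay above for 5 and below for 2 in WT (31.1% and 33.1%), and for 5 and 3 in GS (33% and 33.8%). At 15 d they lay above for 6 and below for 2 in WT (30.4% and 33.2%), and for 7 and 0 in GS (35% and 36.2%).

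**Figure D1:**
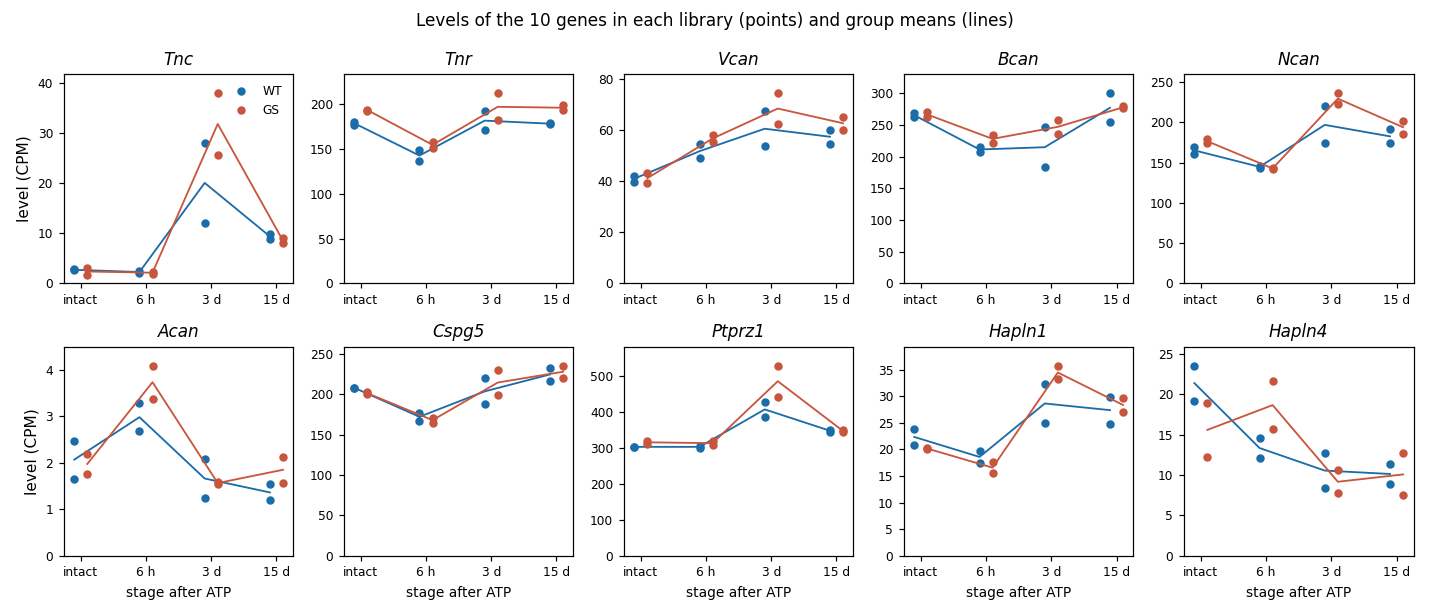
Level in CPM (vertical axes, each from 0) of each of the 10 genes in all 16 libraries by stage (horizontal axis), WT in blue and GS in red, with lines through the group means. Tnc stands at 12.0 to 38.0 CPM in the 3 d libraries and at 1.73 to 2.97 CPM in the intact ones, while Hapln4 is lower at 3 d and 15 d than in WT intact striatum.

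Tnc encodes tenascin C, a large multi-armed glycoprotein that is scarce in the adult brain and reappears in injured tissue. Its intact level was 2.80 and 2.59 CPM in WT and 2.97 and 1.73 CPM in GS. At 6 h it was 1.99 and 2.49 CPM in WT and 1.90 and 2.31 CPM in GS, within the range of the 4 intact libraries. At 3 d the WT libraries held 12.0 and 28.1 CPM and the GS libraries 25.7 and 38.0 CPM, every one above every intact library. At 15 d it stood at 8.86 and 9.88 CPM in WT and 8.12 and 8.96 CPM in GS, below all 3 d libraries and above all intact ones. Tnc rose by 2.90 ± 0.34 at 3 d in WT (7.45-fold, edgeR adjusted p = 6.3e-05) and by 3.76 ± 0.35 in GS (13.5-fold, edgeR adjusted p = 8.39e-06). It was still raised by 1.80 ± 0.34 in WT and 1.86 ± 0.34 in GS at 15 d (edgeR adjusted p = 0.00165 and 0.000717). At 6 h the differences were -0.27 ± 0.36 and -0.16 ± 0.37, neither of which passed. The WT value at 3 d was 3.39 without WT 3 d replicate 1 and 2.16 without replicate 2. The 4 calls at 3 d and 15 d held under each of the 13 alternatives run, with edgeR, DESeq2 or limma-voom adjusted p of at most 0.0384.

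Tnr encodes tenascin R, which is made mainly by oligodendrocytes and some interneurons and links lecticans within perineuronal nets. Its levels were 177 and 180.5 CPM in WT and 194 and 193 CPM in GS intact striatum. At 6 h they were 136 and 149 CPM in WT and 158 and 151 CPM in GS, all below every intact library. Tnr fell, with a log2 fold change of -0.33 ± 0.078 in WT and -0.32 ± 0.078 in GS (edgeR adjusted p = 0.0322 and 0.0137). At 3 d the levels were 192 and 172 CPM in WT and 182 and 213 CPM in GS, and at 15 d 178 and 179 CPM in WT and 194 and 199 CPM in GS. The differences from intact were then 0.024 ± 0.078 and 0.027 ± 0.077 at 3 d and -0.0034 ± 0.078 and 0.019 ± 0.077 at 15 d, with 95% intervals inside -0.17 to 0.19. The fall at 6 h did not pass when any 1 library of its comparison was left out (edgeR adjusted p up to 0.197 in WT, without WT 6 h replicate 1, and 0.11 in GS, without GS 6 h replicate 2) or, in WT, without the 3 libraries high in cortical markers (0.299), while its size stayed between -0.40 and -0.26.

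Vcan encodes versican, a lectican made by oligodendrocyte precursors and by cells of vessels and meninges. Intact levels were 39.7 and 42.1 CPM in WT and 39.1 and 43.1 CPM in GS. They were 48.8 and 54.5 CPM in WT and 57.8 and 55.4 CPM in GS at 6 h, 53.7 and 67.2 CPM in WT and 62.3 and 74.3 CPM in GS at 3 d, and 54.6 and 60.0 CPM in WT and 60.1 and 65.0 CPM in GS at 15 d. All 12 libraries from injected striatum lay above all 4 intact ones. Vcan rose by 0.46 ± 0.11 at 6 h in GS (edgeR adjusted p = 0.0124), and was 0.34 ± 0.11 in WT (edgeR adjusted p = 0.0948), which passed with DESeq2 (0.34, adjusted p = 0.0473). It rose by 0.56 ± 0.11 in WT and 0.73 ± 0.11 in GS at 3 d (edgeR adjusted p = 0.00179 and 0.000168), and by 0.49 ± 0.11 and 0.61 ± 0.11 at 15 d (edgeR adjusted p = 0.00483 and 0.000592). The WT rise at 15 d did not pass without replicate 1 of WT intact (edgeR adjusted p = 0.0513), replicate 2 of WT 15 d (0.0541) or the 3 libraries high in cortical markers (0.0603). The GS rise at 6 h did not pass without replicate 1 of GS intact or either GS library of 6 h (edgeR adjusted p up to 0.0989).

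Bcan encodes brevican, the lectican that astrocytes and oligodendrocyte precursors shed into the adult matrix. It stood at 269 and 262 CPM in WT and 270.5 and 262 CPM in GS intact striatum and at 208 and 214 CPM in WT and 222 and 234 CPM in GS at 6 h, lower in all 4 libraries. At 3 d the WT libraries were far apart at 183 and 247 CPM, and GS held 258 and 236 CPM. At 15 d the values were 254 and 300.2 CPM in WT and 276 and 279.5 CPM in GS, near the intact range. The differences from intact were -0.33 ± 0.11 and -0.22 ± 0.11 at 6 h, -0.30 ± 0.11 and -0.11 ± 0.11 at 3 d, and 0.062 ± 0.11 and 0.06 ± 0.11 at 15 d (WT and GS), none of which passed in edgeR over all groups. At 6 h the WT value passed with DESeq2 (-0.33, adjusted p = 0.049) and both passed in edgeR with only the groups of the contrast (adjusted p = 0.00789 and 0.0237). At 3 d in WT the edgeR adjusted p was 0.0527, and 5 of 13 alternatives passed, among them DESeq2 (-0.29, adjusted p = 0.035). The value rests on which WT 3 d library is kept: it was -0.10, adjusted p = 0.507 without replicate 1 and -0.54, adjusted p = 0.00211 without replicate 2 (edgeR).

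Ncan encodes neurocan, the lectican that astrocytes and neurons make in the growing brain and that astrocytes make again around lesions. Its levels were 169.5 and 161 CPM in WT and 179 and 174 CPM in GS before injury, 146 and 144 CPM in WT and 142 and 144 CPM in GS at 6 h and 174 and 220.0 CPM in WT and 223 and 236 CPM in GS at 3 d. At 15 d they were 174 and 192 CPM in WT and 186 and 202 CPM in GS. All 6 h libraries lay below the intact ones, and all 3 d libraries lay above the 4 of 6 h. In GS Ncan fell at 6 h (-0.31 ± 0.091, edgeR adjusted p = 0.0375) and rose by 0.38 ± 0.091 at 3 d (edgeR adjusted p = 0.00523). The WT differences were -0.19 ± 0.091 and 0.25 ± 0.091 (edgeR adjusted p = 0.256 and 0.0523), neither of which passed, though the second passed with DESeq2 (0.26, adjusted p = 0.0287) and without WT 3 d replicate 1 (edgeR, 0.42, adjusted p = 0.00211). Without WT 3 d replicate 2 it was 0.073, adjusted p = 0.589 (edgeR). The fall in GS at 6 h lost its call without each of its 4 libraries in turn (edgeR adjusted p up to 0.178) and without the 3 WT libraries high in cortical markers (0.0665), and the rise at 3 d passed under all 13 alternatives.

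Acan encodes aggrecan, the lectican that typifies perineuronal nets. It was scarce, with 1.66 and 2.48 CPM in WT and 2.19 and 1.76 CPM in GS intact striatum. At 6 h it was 2.68 and 3.29 CPM in WT and 3.38 and 4.09 CPM in GS, above the intact libraries of the same genotype. It then stood at 2.09 and 1.23 CPM in WT and 1.53 and 1.59 CPM in GS at 3 d and 1.19 and 1.53 CPM in WT and 2.13 and 1.57 CPM in GS at 15 d. Acan rose by 0.92 ± 0.28 at 6 h in GS (edgeR adjusted p = 0.0412), a call that 7 of 13 alternatives did not keep, among them the fit without each of its 4 libraries (adjusted p up to 0.246) and the fit without the 3 WT libraries (0.0515). In WT at 6 h it was 0.53 ± 0.28, with a 95% interval of -0.071 to 1.13, and it passed at no other time.

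Cspg5 encodes neuroglycan C, a membrane proteoglycan of neurons and glia. Its levels were 208 and 208 CPM in WT and 203 and 199.8 CPM in GS intact striatum and 167 and 178 CPM in WT and 165 and 171 CPM in GS at 6 h, lower in all 4 libraries. They were 188 and 219.7 CPM in WT and 230.3 and 199 CPM in GS at 3 d and 216 and 233 CPM in WT and 220.4 and 236 CPM in GS at 15 d. The 6 h differences were -0.27 ± 0.084 in WT and -0.26 ± 0.084 in GS (edgeR adjusted p = 0.082 and 0.0516), both of which passed with DESeq2 (adjusted p = 0.0389 and 0.0251). At 15 d the differences were 0.11 ± 0.084 and 0.18 ± 0.084, with all injected libraries above the intact ones and no call.

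Ptprz1 encodes a receptor-type tyrosine phosphatase whose outer part carries chondroitin sulfate, is also found in soluble form as phosphacan and binds tenascins and pleiotrophin. Intact and 6 h levels were within a narrow band, 301 and 303 CPM and then 305 and 299 CPM in WT, and 311 and 318 and then 318 and 307 CPM in GS. At 3 d they were 385 and 427 CPM in WT and 441 and 528 CPM in GS, the highest of any stage. At 15 d they were 349.8 and 344 CPM in WT and 349.9 and 342 CPM in GS. Ptprz1 rose at 3 d by 0.43 ± 0.078 in WT (edgeR adjusted p = 0.00123) and 0.62 ± 0.078 in GS (edgeR adjusted p = 4.7e-05), calls kept under all 13 alternatives. The differences at 15 d were 0.20 ± 0.077 and 0.14 ± 0.077, neither of which passed in edgeR, though the WT value did with DESeq2 (adjusted p = 0.0366).

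Hapln1 encodes the link protein also known from cartilage. Its levels were 23.8 and 20.8 CPM in WT and 20.2 and 20.1 CPM in GS intact striatum, then 19.7 and 17.4 CPM in WT and 15.5 and 17.6 CPM in GS at 6 h. At 3 d they were 25.0 and 32.2 CPM in WT and 33.2 and 35.7 CPM in GS and at 15 d 29.9 and 24.8 CPM in WT and 29.6 and 27.1 CPM in GS, above all intact libraries at both times. In GS Hapln1 rose by 0.77 ± 0.13 at 3 d and by 0.49 ± 0.13 at 15 d. The edgeR adjusted p was 0.000354 and 0.00727, the latter 0.0593 without GS 15 d replicate 1. In WT it rose by 0.36 ± 0.13 at 3 d (edgeR adjusted p = 0.0481), a call lost in 10 of 13 alternatives, among them those without WT 3 d replicate 2 (edgeR, 0.16, adjusted p = 0.441) and without the 3 WT libraries (0.46, adjusted p = 0.071). Without WT 3 d replicate 1 it was 0.54, adjusted p = 0.00912 (edgeR). The WT difference at 15 d was 0.29 ± 0.13 (edgeR adjusted p = 0.103). At 6 h the differences were -0.27 ± 0.13 and -0.28 ± 0.13, which did not pass. Its genomic neighbour Vcan rose in the same 2 comparisons at 3 d, but at 6 h the fitted values of the pair had opposite signs.

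Hapln4 encodes a link protein of brain perineuronal nets. Intact levels were 19.2 and 23.5 CPM in WT and 19.0 and 12.2 CPM in GS. At 6 h they were 12.1 and 14.5 CPM in WT and 15.7 and 21.6 CPM in GS, so that the WT libraries were below their intact ones and the GS libraries overlapped theirs. They were 12.7 and 8.42 CPM in WT and 7.75 and 10.6 CPM in GS at 3 d and 8.86 and 11.4 CPM in WT and 12.7 and 7.46 CPM in GS at 15 d. Hapln4 fell in WT, with log2 fold changes of -1.02 ± 0.28 at 3 d and -1.08 ± 0.28 at 15 d (edgeR adjusted p = 0.0138 and 0.0112). In GS it fell at 3 d (-0.77 ± 0.28, edgeR adjusted p = 0.0442), which 9 of 13 alternatives did not keep, among them those without GS intact replicate 1 (-0.41, adjusted p = 0.375) and without the 3 WT libraries (-0.77, adjusted p = 0.0647). The GS difference at 15 d was -0.63 ± 0.28 (edgeR adjusted p = 0.0905), which passed without GS intact replicate 2 (adjusted p = 0.043) or GS 15 d replicate 1 (0.0253). With the cortical marker level as a covariate the WT value at 3 d was -0.94, adjusted p = 0.0769 in edgeR, and it was also lost without WT intact replicate 2 (edgeR adjusted p = 0.0827) or WT 3 d replicate 2 (0.125). The WT fall at 15 d did not pass without replicate 2 of WT intact (0.0721), WT 15 d replicate 1 (0.0762) or the 3 WT libraries (0.122). Many perineuronal nets surround parvalbumin interneurons. The markers listed for these neurons were Pvalb, Kcnc1, Kcnc2, Lhx6 and Gad1. They summed to 744 to 858 CPM intact, 639 to 743 CPM at 3 d and 595 to 663 CPM at 15 d in WT. In GS the sums were 805 to 806, 639.6 to 645 and 572 to 639 CPM. The sum was not shown to come from these neurons alone. Of these 5 markers 3 fell in WT and 2 fell in GS at each of 3 d and 15 d, and their part in the fall of Hapln4 was not tested.

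**Figure D2:**
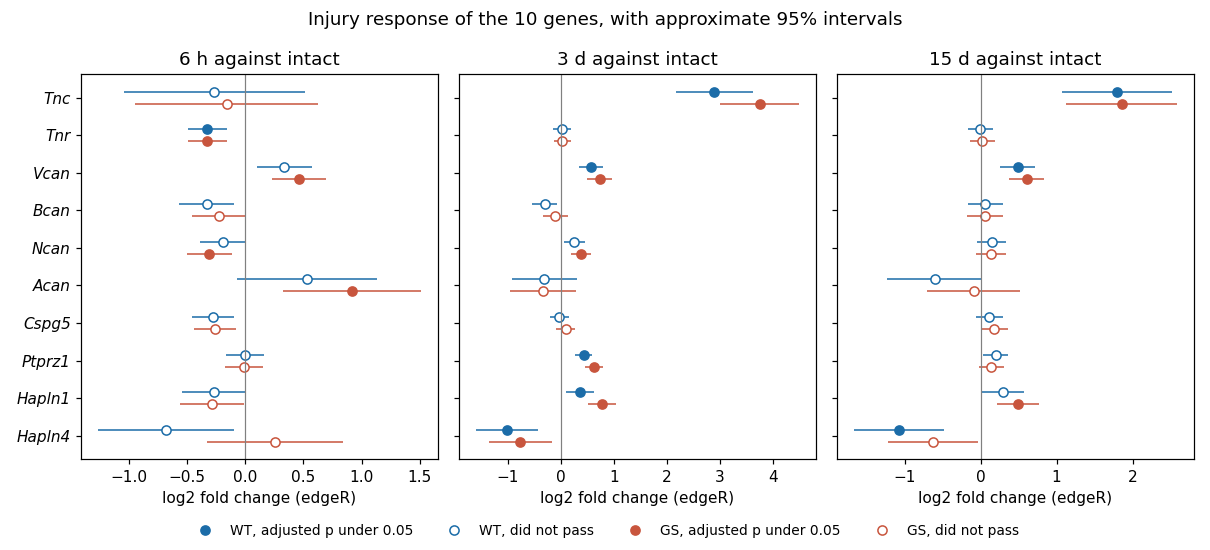
Log2 fold change against intact striatum of the same genotype (horizontal axes, scaled separately in each panel) for each gene at 6 h, 3 d and 15 d, WT in blue and GS in red, with approximate 95% intervals as bars and filled points for adjusted p under 0.05. At 3 d Tnc stands at 2.90 in WT and 3.76 in GS, and all other members lie between -1.02 and 0.77.

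Marker levels of other cell types were read at 3 d and 6 h. At 3 d 14.7% of all genes rose and 12.7% fell in WT, and 18.6% rose and 16.4% fell in GS. Astrocyte markers, with Gfap, Aqp4 and Slc1a3 among them, summed to 5095 to 5133 CPM intact and 6587 to 6604 CPM at 3 d in WT and to 5051 to 5273 and 6582 to 7952 CPM in GS, and 6 of 8 rose at 3 d in each genotype. Microglia and macrophage markers summed to 216 to 219.7 CPM intact and 458 to 705 CPM at 3 d in WT and to 224 to 233 and 728 to 943 CPM in GS, with 5 of 6 and 6 of 6 rising. Fibroblast and meningeal markers summed to 41.9 to 42.7 and 51.7 to 61.6 CPM in WT and to 42.6 to 47.0 and 58.6 to 86.7 CPM in GS, with 5 of 6 rising in each and 1 falling in WT. Oligodendrocyte precursor markers summed to 338 to 339 and 292 to 389.8 CPM in WT and to 333 to 363 and 383 to 412 CPM in GS, with 2 of 7 rising in GS and a median log2 fold change of -0.12 in WT. Projection neuron markers summed to 8040 to 8705 CPM intact and 7043 to 8023 CPM at 3 d in WT and to 9306 to 10626 and 6668 to 7349 CPM in GS, with 1 of 8 and 7 of 8 falling. Endothelial markers summed to 66.1 to 79.0 and 95.1 to 115 CPM in WT and to 96.2 to 99.2 and 100.1 to 143 CPM in GS, with 3 of 6 and 2 of 6 rising. At 6 h, when Tnr and Ncan fell in GS, 4 of 6 endothelial markers (55.4 to 70.5 CPM summed), 3 of 7 precursor markers (277 to 305 CPM) and 5 of 8 projection neuron markers (8130 to 8490 CPM) also fell in GS. At 6 h in WT, where Tnr also fell, these lists summed to 61.0 to 61.5, 271 to 291 and 8782 to 8886 CPM. Their median log2 fold changes were -0.16, -0.46 and 0.062. Of their genes 0 of 6, 0 of 7 and 0 of 8 fell in WT, where 1.55% of all genes fell. Of the astrocyte markers 1 of 8 rose and 0 fell in GS at 6 h. There 1 of 6 microglia and macrophage markers and 2 of 6 fibroblast and meningeal markers fell. Of all genes 7.47% rose and 6.37% fell in GS at 6 h. The part of these shifts in the members' changes was not tested.

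Between 3 d and 15 d, Tnc (-1.90 ± 0.31, edgeR adjusted p = 0.011) and Ptprz1 (-0.48 ± 0.078, edgeR adjusted p = 0.00934) fell in GS. These were 2 of 10 members, where 1.02% of all genes fell, and 0 members rose (1.08% of all genes; 0 rose at an unadjusted p under 0.05 in edgeR and 0 with DESeq2 and limma-voom). Both calls were lost without GS 3 d replicate 2, GS 15 d replicate 1 or GS 15 d replicate 2 (edgeR adjusted p up to 0.124). In WT 0 of 10 members passed (3.2% of all genes passed), 3 had an unadjusted p under 0.05, DESeq2 called 1 (Bcan) and limma-voom 0. There Tnc was -1.10 ± 0.31 (edgeR adjusted p = 0.0658), with -1.59, adjusted p = 0.00634 without WT 3 d replicate 1 and -0.36, adjusted p = 0.457 without replicate 2. Ptprz1 was -0.23 ± 0.077 (edgeR adjusted p = 0.125). Vcan was -0.078 ± 0.11 in WT and -0.13 ± 0.11 in GS, with 95% intervals of -0.31 to 0.15 and -0.36 to 0.10. Bcan was 0.37 ± 0.11 in WT and 0.17 ± 0.11 in GS, with both 15 d libraries above both 3 d libraries in each genotype and no call in edgeR with all libraries. The WT value of Bcan was 0.17, adjusted p = 0.552 without WT 3 d replicate 1 and 0.60, adjusted p = 0.00367 without replicate 2 (edgeR). Both 15 d libraries lay above both 3 d libraries for 1 member and below for 2 in WT (22.8% and 21.6% of all genes), and for 1 and 4 in GS (24.2% and 24.5%).

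No member passed between genotypes at any stage in edgeR, nor did the difference between the injury responses pass for any member. GS against WT called 0 of 10 members before injury and at each of 6 h, 3 d and 15 d (0.0159%, 0.00532%, 0.0106% and 0.00532% of all genes). DESeq2 and limma-voom also called 0, and 0, 0, 3 and 0 members had an unadjusted p under 0.05 in edgeR. Both GS libraries lay above both WT libraries for 3, 6, 3 and 3 members (22.4%, 22.3%, 15.4% and 16.6% of all genes) and below for 3, 0, 0 and 0 (22.3%, 22.1%, 15.4% and 16.1%). The GS response minus the WT response called 0 of 10 at 6 h, 3 d and 15 d (0.0106%, 0% and 0% of all genes), with 1, 1 and 0 members at an unadjusted p under 0.05 and 0 by both other tools. At 3 d the 3 members were Tnc (0.66 ± 0.30, 95% interval 0.024 to 1.30), Ncan (0.22 ± 0.091) and Ptprz1 (0.25 ± 0.077, 95% interval 0.089 to 0.42), with edgeR adjusted p = 0.595, 0.572 and 0.55. Both GS libraries lay above both WT libraries for Ncan and Ptprz1, while the Tnc values overlapped. For Tnr both GS libraries lay above both WT libraries before injury, at 6 h and at 15 d, with differences of 0.11 ± 0.078, 0.12 ± 0.078 and 0.14 ± 0.078 and edgeR adjusted p = 0.623, 0.812 and 0.972. In the response at 3 d Hapln1 differed by 0.42 ± 0.18 (edgeR adjusted p = 0.471) and Tnc by 0.86 ± 0.47, with a 95% interval of -0.14 to 1.86. In the response at 6 h Hapln4 differed by 0.94 ± 0.39 (edgeR adjusted p = 0.473). Without WT 3 d replicate 1 the genotype difference of Tnc at 3 d was 0.18, adjusted p = 0.996, and without WT 3 d replicate 2 it was 1.40, adjusted p = 0.041 (edgeR). Ptprz1 passed without GS 3 d replicate 1 (edgeR, 0.38, adjusted p = 0.0381).

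**Figure D3:**
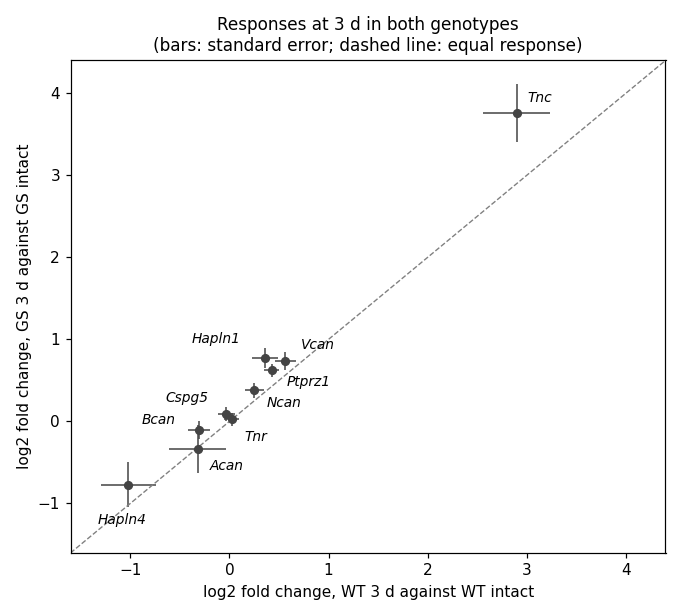
Log2 fold change at 3 d against intact striatum in WT (horizontal axis) and in GS (vertical axis) for the 10 genes, with standard errors as bars and a dashed line of equal response; the comparisons share no library. Of the 10 points 9 lie above the line, Tnc at 2.90 and 3.76 and Hapln1 at 0.36 and 0.77 among them, and no difference between the responses passed in edgeR. The share of all genes above the line is not given. All points use the same WT 3 d libraries and are not separate evidence. Without replicate 1 of WT 3 d, Vcan, Cspg5, Bcan and Ncan differed by 0.0062, 0.0030, -0.014 and -0.045. The others then ran from 0.076 (Tnr) to 0.56 (Hapln4). Without replicate 2 the same genes, from Vcan to Ncan, differed by 0.34, 0.24, 0.43 and 0.31. Acan, Tnr and Hapln4 then differed by -0.35, -0.076 and -0.014, and Hapln1, Ptprz1 and Tnc by 0.61, 0.27 and 1.60.

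The genes most like each member in level over the 16 libraries were found by Pearson r of log2 CPM among 12043 genes with a mean of at least 5 CPM, as a description, since all libraries share the course of the injury. Tnc was most like Lgals1 (r = 0.985), which encodes a galectin, and Nes (r = 0.978), which encodes the intermediate filament nestin. Vcan was most like Rab31 (r = 0.954) and Hmgb2 (r = 0.947), and Ptprz1 most like Kpna2 (r = 0.956) and Klk6 (r = 0.948). Ncan was most like the microglial gene Tmem119 (r = 0.974) and Grap (r = 0.972), and Hapln1 most like the microglial ADP receptor gene P2ry12 (r = 0.963) and Slc13a3 (r = 0.963). Of the genes most like Bcan, Phldb1 had r = 0.928. Tnr was most like Cdh20 (r = 0.931) and Arhgef11 (r = 0.903), and Cspg5 most like AI413582 (r = 0.956) and Wscd1 (r = 0.953). Hapln4 was most like the potassium channel subunit gene Kcnab3 (r = 0.980) and Disp2 (r = 0.956), and Acan most like Slc45a4 (r = 0.930) and Rhob (r = 0.911). Among the members, the highest r was between Tnc and Ptprz1 (r = 0.928) and the lowest between Acan and Hapln1 (r = -0.824).

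The wider matrix pathway was read from lists of genes outside the members. Of all genes 14.7% rose and 12.7% fell in WT and 18.6% rose and 16.4% fell in GS at 3 d. At 15 d the shares were 14.2% and 11.2% in WT and 19.4% and 17.6% in GS. The list counts here and below stand beside these shares, and no list was tested as a set. In the list of the other link proteins, Cspg4, tenascin X, hyaluronan enzymes and the hyaluronan receptor, 2 of 12 genes rose and 2 fell in WT at 3 d and 3 rose in GS (median log2 fold change 0.027 and 0.063); at 15 d 2 rose and 2 fell in WT and 4 rose and 1 fell in GS (median 0.14 and 0.22). Cd44, the cell surface receptor for hyaluronan, stood at 5.11 to 5.56 CPM intact and 24.6 to 26.4 CPM at 3 d in WT, and at 5.66 to 6.26 and 23.0 to 35.5 CPM in GS. It rose by 2.26 ± 0.21 and 2.29 ± 0.21 at 3 d, and by 2.32 ± 0.21 and 2.60 ± 0.21 at 15 d. Has2, a hyaluronan synthase gene, rose in GS at 3 d (2.66 ± 0.41) and was 1.07 ± 0.41 in WT, and Tnxb, the tenascin X gene, rose in GS at 15 d (1.32 ± 0.26) and was 0.46 ± 0.25 in WT. The difference between the responses of the genotypes passed for neither gene in edgeR, where 0% of all genes passed at 3 d and at 15 d. Of the link protein genes next to Bcan and Acan, Hapln2 fell in WT (-0.47 ± 0.12 at 3 d, -0.35 ± 0.12 at 15 d) and was -0.15 ± 0.12 and -0.19 ± 0.12 in GS, and Hapln3 was 0.0064 ± 0.39 and -0.054 ± 0.39 at 3 d. These genes were chosen after their values were seen, for their position.

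Among other proteoglycan core proteins, 6 of 24 rose and 3 fell in WT and 9 rose and 4 fell in GS at 3 d (median 0.29 and 0.35), and 11 rose and 2 fell in WT and 13 rose and 3 fell in GS at 15 d (median 0.41 and 0.49). Sdc1, which encodes the heparan sulfate proteoglycan syndecan-1, stood at 0.300 to 0.321 CPM intact and 1.46 to 2.79 CPM at 3 d in WT, and at 0.205 to 0.479 and 1.62 to 2.66 CPM in GS. It rose by 2.77 ± 0.45 and 2.63 ± 0.44. Srgn, the proteoglycan gene of leukocyte granules, rose by 2.34 ± 0.31 and 2.31 ± 0.31 at 3 d. Fmod, which encodes the collagen-binding keratan sulfate proteoglycan fibromodulin, was 0.53 ± 0.25 and -0.34 ± 0.24 at 3 d, without passing, and rose by 2.68 ± 0.25 and 2.19 ± 0.23 at 15 d, with WT libraries at 1.18 to 1.54 CPM intact and 6.70 to 10.8 CPM at 15 d. These genes are expressed by vessel, meningeal and blood-borne cells as well, and Dcn and Lum are also on the fibroblast list.

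Enzymes that build the chondroitin sulfate chain moved in both directions. Of 12 genes 1 rose and 4 fell in WT and 2 rose and 5 fell in GS at 3 d (median 0.034 and -0.044), and 1 rose and 4 fell in WT and 2 rose and 4 fell in GS at 15 d (median -0.044 and -0.11). Csgalnact1, which starts the chain, rose in GS by 0.71 ± 0.19 at 3 d and 0.76 ± 0.19 at 15 d and was 0.11 ± 0.19 and 0.44 ± 0.19 in WT. B3galt6, an enzyme of the linker between protein and chain, fell at 3 d (-0.45 ± 0.14 in WT, -0.58 ± 0.14 in GS), as did the chain polymerising gene Chpf2 (-0.47 ± 0.095 and -0.46 ± 0.095). In the sulfation and epimerisation list 3 of 9 rose and 1 fell in WT and 1 rose and 3 fell in GS at 3 d (median 0.23 and 0.15), and 1 rose and 2 fell in WT and 2 rose and 3 fell in GS at 15 d (median 0.12 and -0.054). Dse, the epimerase that turns chondroitin sulfate into dermatan sulfate, rose by 1.30 ± 0.21 in WT and 1.34 ± 0.21 in GS at 3 d and by 1.21 ± 0.21 and 1.54 ± 0.21 at 15 d. Its partner sulfotransferase gene Chst14 rose in WT at 3 d (0.87 ± 0.25) and in GS at 15 d (0.66 ± 0.24), and was 0.58 ± 0.24 in GS at 3 d and 0.27 ± 0.25 in WT at 15 d. The chondroitin 4-sulfotransferase gene Chst12 fell in WT and GS at 3 d (-0.52 ± 0.12 and -0.42 ± 0.12) and at 15 d (-0.54 ± 0.12 and -0.70 ± 0.12).

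Among receptors and ligands of proteoglycans and tenascins, 5 of 18 rose and 5 fell in WT and 6 rose and 2 fell in GS at 3 d (median 0.021 and 0.15), and 5 rose and 1 fell in WT and 6 rose and 1 fell in GS at 15 d (median -0.020 and 0.11). Tlr4, an innate receptor that tenascin C activates, rose by 1.82 ± 0.32 in WT and 2.55 ± 0.32 in GS at 3 d and by 1.78 ± 0.32 and 2.49 ± 0.32 at 15 d. The Nogo receptor genes Rtn4rl2 (-4.12 ± 0.87) and Rtn4r (-2.17 ± 0.54) fell in WT at 3 d, where WT intact libraries ran from 1.31 to 6.39 and from 1.63 to 7.07 CPM and the cortical markers of those libraries summed to 55.3 to 220.1 CPM, and in GS they were -1.87 ± 0.84 and -1.23 ± 0.53, without passing. The part of cortical tissue in their fall was not tested. Of the proteases that cleave lecticans and the inhibitor Timp3, 3 of 9 rose in WT and 5 in GS at 3 d (median 0.77 and 0.67), 5 rose in WT and 6 in GS at 15 d (median 0.39 and 0.58). Adamts1 rose by 1.50 ± 0.18 in WT and 1.38 ± 0.18 in GS at 3 d, and Adamts9 by 1.51 ± 0.20 and 1.51 ± 0.21. Adamts9 had already risen at 6 h, by 0.92 ± 0.21 in WT and 1.73 ± 0.21 in GS. Mmp2, a gelatinase gene of fibroblasts among other cells, rose by 1.78 ± 0.46 and 1.72 ± 0.44 at 3 d and by 2.60 ± 0.46 and 2.62 ± 0.45 at 15 d.

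**Figure D4:**
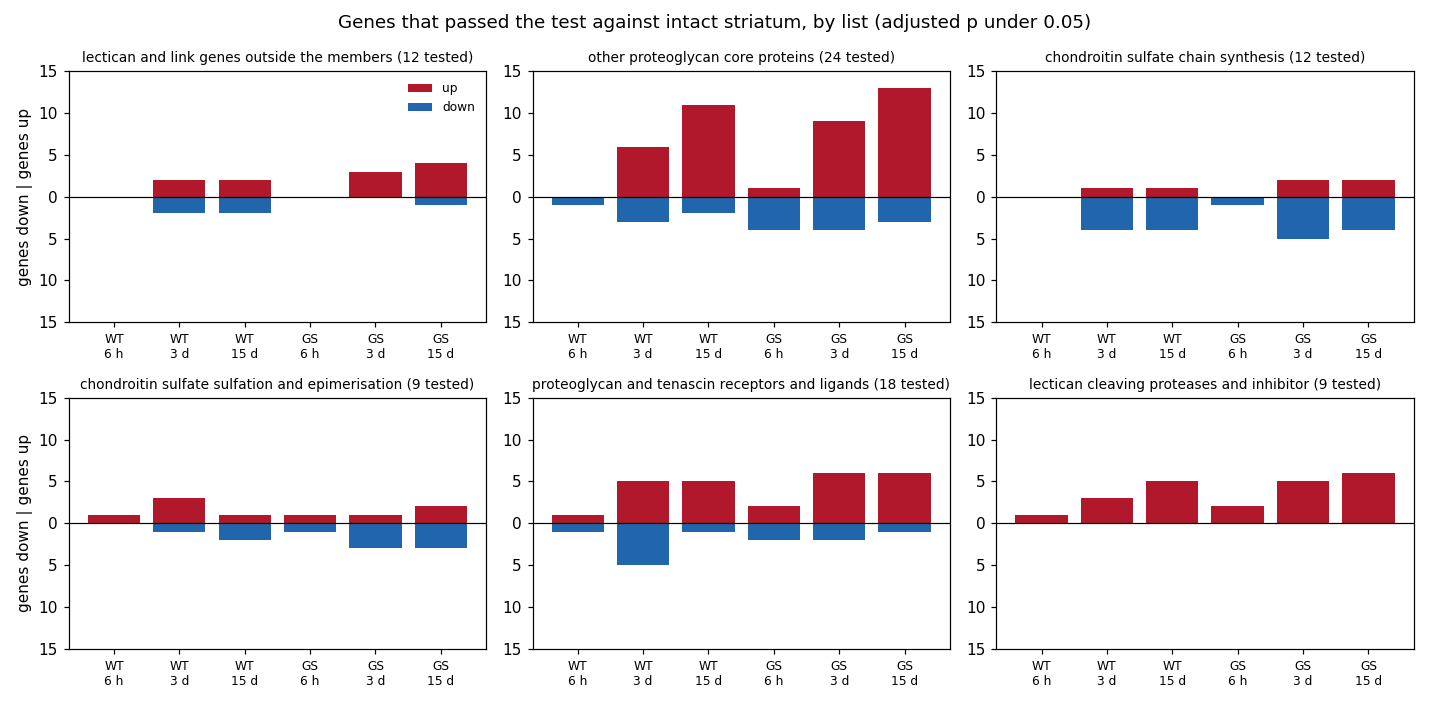
Number of genes that rose (red, upward) or fell (blue, downward) against intact striatum at an adjusted p under 0.05 in 6 matrix lists (vertical axes), for WT and GS at 6 h, 3 d and 15 d (horizontal axes). Among other proteoglycan core proteins the count of rising genes is 11 of 24 in WT and 13 of 24 in GS at 15 d. Of all genes 14.2% rose in WT and 19.4% in GS at that time.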

How the data were processed

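The deposited values are whole-number read counts per gene of RNA sequencing libraries. FastQC 0.11.7 and the mm10 build are named per the submitters' processing notes; the aligner, the counter and strand use are not given there or in the labels. In the deposited count table no gene is at 0 in any of the 16 libraries, so genes undetected in a library were not analysed here. The NT columns are read as WT because GS names the only other genotype. Library totals were 49220578 to 63948110 counts, with TMM factors of 0.947 to 1.03.

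Genes passing filterByExpr (18813 of 19457) were fitted together over all 16 libraries with edgeR 4.0.16 in R 4.3.3 (glmQLFit and glmQLFTest, 8 groups, 8 residual degrees of freedom, common biological coefficient of variation 10.1%), and p-values were Benjamini-Hochberg adjusted over all genes tested. The code was checked on simulated counts. The log2 CPM used for correlations has a prior count of 2. With 2 libraries per group, these edgeR p-values rest on a spread estimated per gene over all 8 groups of these samples. They do not measure the scatter of the compared groups alone. The alternatives tried were DESeq2 1.42.0, voom in limma 3.58.1, RLE scaling, omitting the low-count filter or raising it to 1 CPM in 4 libraries, a replicate block, a cortical marker covariate, the groups of a contrast alone, and leaving out single libraries or the 3 WT libraries highest in cortical markers. Of each pathway list, up to 3 passing genes with the largest change in the 4 comparisons at 3 d and 15 d are named, and for each member the genes most like it in level. A single such gene and the values of a marker list are not reported here. Of the 149 list genes 146 were tested. The members and lists were chosen with earlier results of these data known.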

Additional observations from a re-analysis of the deposited data

How the results depend on the processing

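Of the values for single members, 1306 kept their side of the threshold under the alternatives that leave out no single library. A call was lost for 21 and gained for 23, and 0 values with a call in either fit reversed sign. A value that passed in neither fit counts as kept, also where its sign changed, so the number kept is not a number of calls kept. Acan in WT at 3 d, for example, was -0.32 with all libraries and 0.018 without WT 3 d replicate 2. When 1 library was left out, which leaves 1 in its group, more calls were lost than gained. In WT at 6 h the count of members called was 1, and was 4 with DESeq2, 5 with only the groups of the contrast, and 0 without the 3 WT libraries high in cortical markers. Between 3 d and 15 d in WT it was 0, and 1 with DESeq2. In WT at 3 d it was 5, and 3 with the cortical marker covariate. Without the 3 WT libraries it was 1 in place of 3 in WT at 15 d and 2 in place of 4 in GS at 6 h. The causes were not tested. Leaving out each library in turn gave 0 to 0 in WT and 0 to 1 in GS at 6 h, 3 to 6 and 5 to 6 at 3 d, 2 to 2 and 3 to 4 at 15 d, and 0 to 1 and 0 to 2 between 3 d and 15 d. It gave 0 to 1 between genotypes at 3 d, and 0 at the other stages and for the responses.

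Same-numbered libraries did not deviate together (correlations of -0.099 to 0.174, median 0.014, over 56 pairs), so the numbers were not taken as pairs. The 2 libraries of a group deviate oppositely from its mean, so each value occurs for both replicate numbers. The 56 values are thus not separate pieces of evidence. With the replicate block the count in WT at 6 h was 2 (Vcan added), and the count of all genes called there was 851 against 769. Depth limits Acan and Tnc most, whose intact libraries held the fewest reads of the 10.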
